A study of Homo sapiens with 4 samples.

Results

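Fatty acid oxidation was described here through 32 genes of mitochondrial and peroxisomal beta-oxidation, taken by symbol from the 78686 features of the count sheets, with each symbol matching 1 Ensembl identifier. Of the 32, 24 had enough reads to pass the filter on low counts and were tested among 10670 genes, and 8 did not pass. The comparison set 2 libraries of HEMK1 knockout (KO) cells against 2 libraries of wild-type (WT) cells, to find transcripts that change with the edit of this gene. Both groups were HEK293 cells, an established human line derived from embryonic kidney, grown in the same high glucose medium with serum. HEMK1 encodes a methyltransferase of the release factors that end mitochondrial translation. The KO cells were transfected with a pool of Cas9 plasmids carrying 2 guides, sorted as single cells on mCherry and expanded, and both KO libraries came from 1 clone, so loss of HEMK1 and any other difference of that clone from the WT cells cannot be told apart. The labels call the replicates biological without saying whether they were separate cultures, and a p-value here reflects only how far these 4 libraries spread.

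Beta-oxidation shortens fatty acids by repeated removal of acetyl-CoA. Acyl-CoA synthetases activate the acid, the carnitine shuttle carries long chains into mitochondria, and each turn of the spiral uses a dehydrogenase, a hydratase, a second dehydrogenase and a thiolase. The electrons of the first dehydrogenase pass through the electron transfer flavoprotein (ETF) to ubiquinone, so the pathway feeds the same respiratory chain that contains proteins made by mitochondrial ribosomes. Peroxisomes carry out a related spiral on very long and branched chains. Cultured cells in high glucose medium have other fuels, and the pathway is most prominent in heart, liver and muscle.

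Depth was low and limits every value below. Gene counts summed to 2476471 and 2671594 in the WT libraries and to 2856784 and 3202039 in the KO libraries. HEMK1 itself had 6 and 9 counts in WT and 1 and 7 counts in KO libraries, a KO to WT ratio of 0.453 with a 95% exact counting interval of 0.166 to 1.14, so its mRNA does not check the labels. Among 7 genes known from HEK293 cells, VIM had 246 to 360 counts per library, KRT8 94 to 146, KRT18 30 to 56, CDH2 137 to 186 and NEFL 76 to 129, while NEFM had 5 to 13 counts and PAX2 had 0 counts in all libraries. CPM scales counts to the size of the library, here the effective size after TMM scaling for single genes and the plain total for summed marker lists and floors. Markers of other tissues were nearly absent: 7 hepatocyte markers, 5 of them at 0 in every library, summed to at most 0.350 CPM and 6 adipocyte markers, 4 of them at 0, to at most 0.625 CPM in any library. The 8 muscle markers, 5 of them at 0, summed to between 4.49 and 7.27 CPM, and the 9 blood and immune markers summed to 0 CPM in both WT libraries and to 3.15 and 9.06 CPM in the KO libraries. Summed over the HEK293 list, levels were 308 and 306 CPM in WT and 247 and 212 CPM in KO libraries. VIM, KRT8, KRT18 and CDH2 were lower and NEFL was higher in both KO libraries. All 5 tested genes thus did not overlap between the groups, against 39.2% of all tested genes. At an unadjusted p under 0.05 by edgeR there were 3 of the 5, against 8.43% of all tested genes. After adjustment 0 of the 5 were called, against 0.328%. The part of these markers in the results was not tested.

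As a share of all counts, the 32 genes together made up 0.324% and 0.296% in WT and 0.353% and 0.342% in KO libraries. Most of this came from few genes. The gene of the trifunctional protein's alpha subunit, HADHA, alone had 2327 and 2248 counts in WT and 3087 and 3407 in KO libraries, and at the other end MLYCD, malonyl-CoA decarboxylase, and ACADS, the short-chain acyl-CoA dehydrogenase, had 0 counts in both WT libraries. A count of 0 over both WT libraries allows up to 0.583 CPM, from a floor of 3 counts. Floors and exact intervals of this kind describe counting error alone, because no molecular identifiers were counted.

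**Figure D1:**
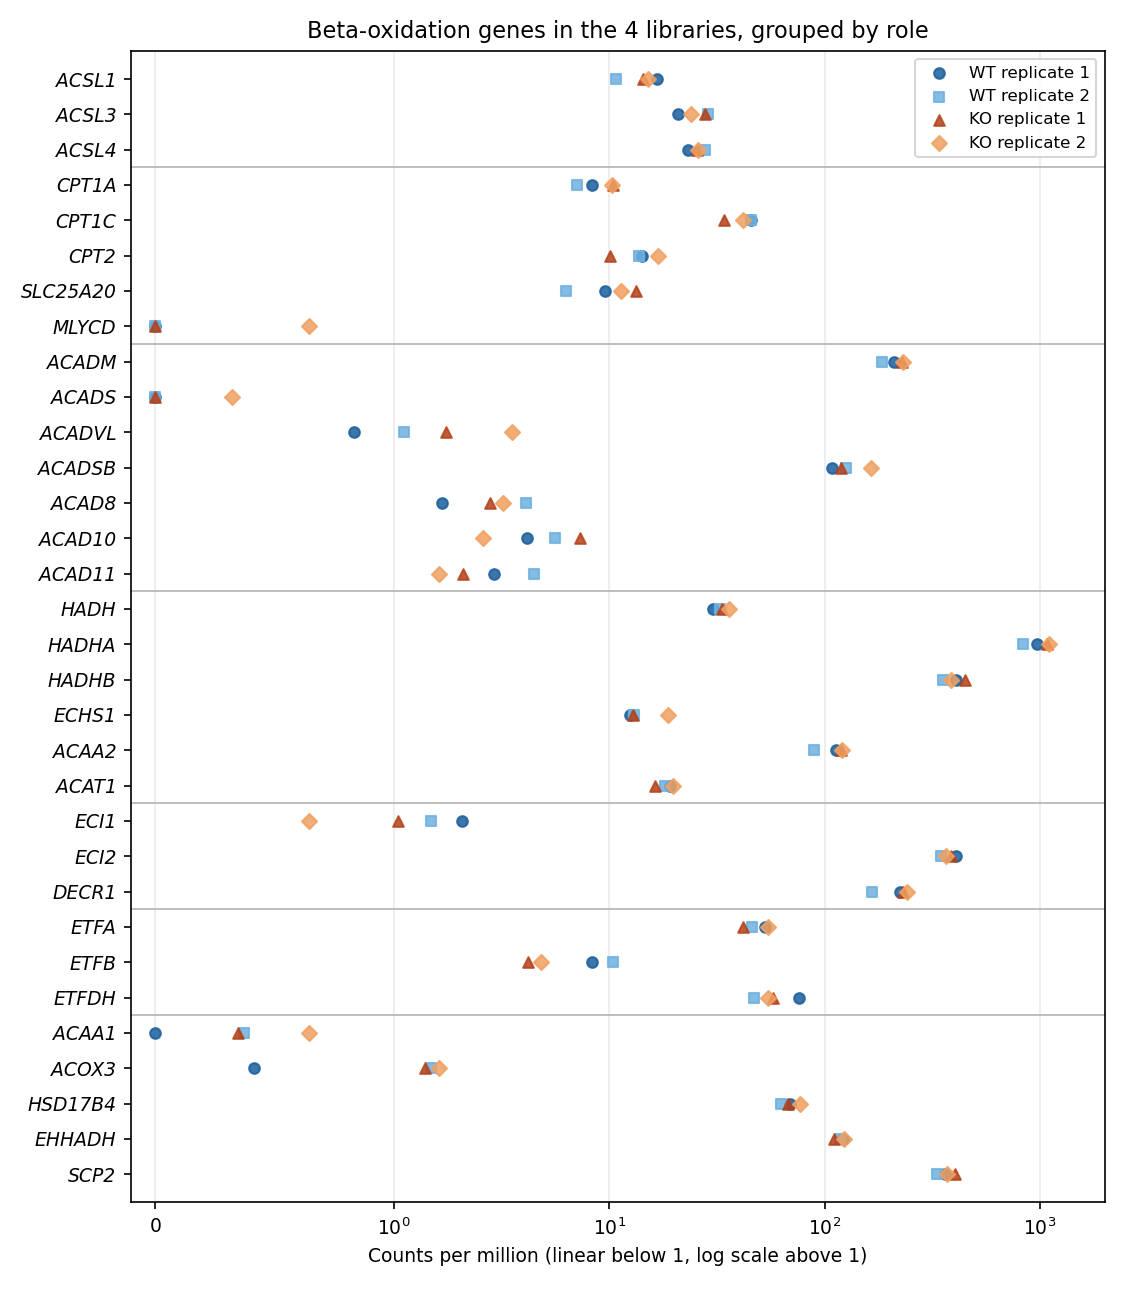
CPM (horizontal axis, linear below 1 and logarithmic above) of each of the 32 genes in each of the 4 libraries, with 1 point per library and grey lines between roles. HADHA lies between 835 and 1097 CPM, the points of most genes above 10 CPM lie close together, and ETFB shows both KO libraries below both WT libraries.

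Levels were compared between genes per length, as TPM, a level scaled to the same total in each library, from the counts and the union of annotated exons. In WT libraries HADHA was highest at 587 ± 40.6 TPM (SD, n = 2), followed by its partner HADHB at 253 ± 15.6 and by ECI2, an enoyl-CoA isomerase, at 235 ± 17.7, and these last 2 differed by about their spread. DECR1, the dienoyl-CoA reductase needed for polyunsaturated chains, came next at 158 ± 28.6 TPM. SCP2, which encodes a peroxisomal thiolase and sterol carrier, at 119.6 ± 3.36 TPM and ACADM, the medium-chain acyl-CoA dehydrogenase, at 118 ± 6.95 TPM differed by less than their spread. The median of the 32 was 10.6 TPM. With the length of coding exons instead, HADHA was at 357 ± 20.2 TPM and HADH, the short-chain hydroxyacyl-CoA dehydrogenase, moved from 7.47 to 23.1 TPM, since its annotated exons cover 12086 bases and its coding sequence 1409. The order of the 32 genes was nearly kept between both lengths (Spearman's rho = 0.980 across genes, a description).

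The level of a gene in these libraries went with the GC content of its transcript, and the beta-oxidation genes followed that pattern. Of the 19 genes with a transcript GC content under 50%, 18 passed the filter, and their median WT level, with ACAD11, which did not pass, included, was 39.0 TPM. Of the 13 at or above 50%, 6 passed, and the median was 1.56 TPM. Among all protein-coding genes 60.5% of 10204 passed below 50% and 24.0% of 9623 passed at or above it. Their median WT level was 4.34 TPM below 50% and 0.227 TPM at or above it, under the members' medians on both sides. In finer bins it went from 8.15 TPM under 40% GC to 0.316 TPM between 55% and 60% and to 0 above 60%. Across the 32 genes, which share the same libraries and are not independent, Spearman's rho between GC content and WT level was −0.608, against −0.454 across 14380 protein-coding genes with at least 1 count. The 8 genes that did not pass had a median GC content of 57.0%, from 48.3% in ACAD11 to 64.6% in ACADS, and the 24 that passed had a median of 45.3%. CPT1C (59.8% GC) and ECHS1 (60.3% GC) were the members above 55% that passed. Whether the low counts of GC-rich members reflect few transcripts in the cells was not tested, so the order of levels between genes of different GC content describes these libraries.

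**Figure D2:**
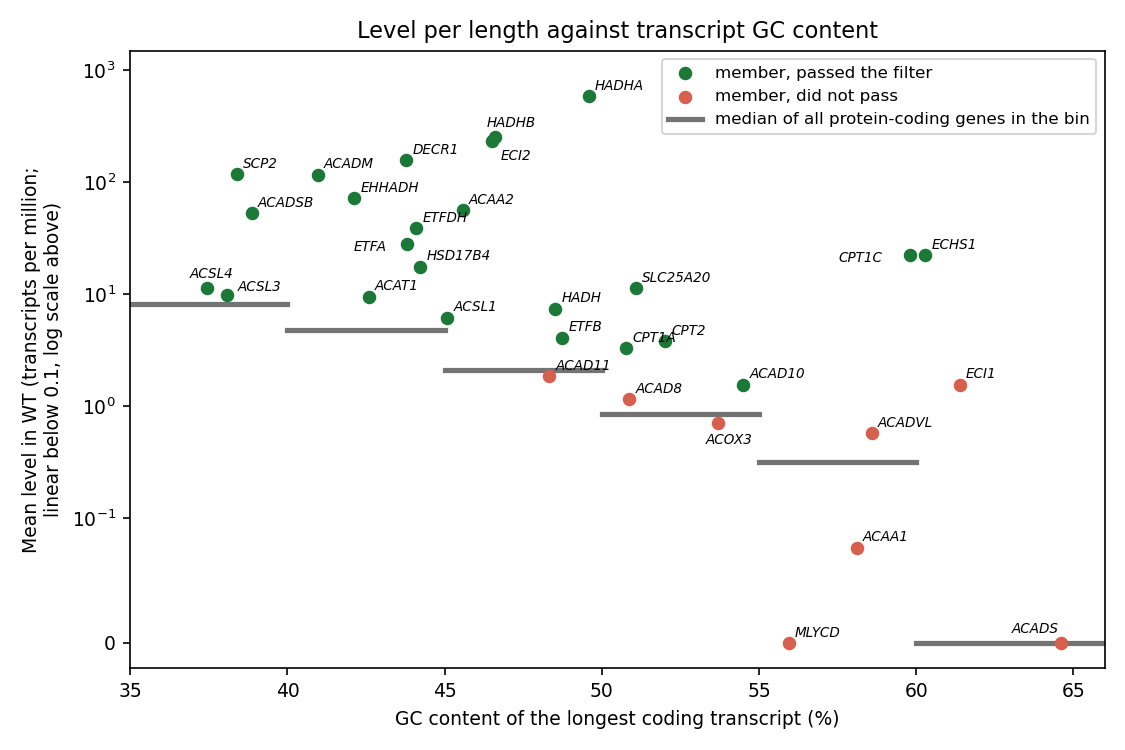
Mean WT level in TPM (vertical axis, linear below 0.1 and logarithmic above) of the 32 genes against the GC content of the longest coding transcript in percent. Grey bars give the median of all protein-coding genes in each GC bin, falling from 8.15 TPM under 40% to 0 above 60%, and 7 of the 8 members that did not pass the filter lie above 50%.

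Of the 24 tested genes, 0 were called higher and 0 lower in KO cells at an adjusted p under 0.05 (quasi-likelihood F test of edgeR, p adjusted by Benjamini-Hochberg over all genes). Over all 10670 genes 0.0469% were called higher and 0.281% lower, or 0.328% in either direction, so a list of 24 with 0 calls is near the background. At an unadjusted p under 0.05 there was 1 of 24, ETFB, against 8.43% of all genes, and DESeq2 and limma-voom on the same counts also called 0 of the 24 after adjustment. The smallest edgeR adjusted p among the 24 was 0.480. Fitted log2 fold changes of KO over WT ran from −1.05 to 0.63 with 14 above 0 and 10 below, and their median was 0.12 against 0.00919 for all tested genes, of which 51.2% were above 0. That median was 0.19 without WT replicate 1, 0.05 without WT replicate 2 and 0.06 without KO replicate 2. WT replicate 2 was the lowest library in 12 of the 24 genes, against 26.9% of all tested genes. The median difference of WT replicate 2 from WT replicate 1 was −0.13 in log2 for the 24 and 0.00647 for all tested genes.

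The precision of the comparison is given by the 95% intervals of the fit. For 20 of the 24 genes the interval lay inside a 2-fold change in either direction, against 60.15% of all tested genes, and the 4 whose interval reached a 2-fold change were ETFB, ACAD10, CPT1A and SLC25A20, all of them with at most 38 counts in any library. Both KO libraries lay above both WT libraries in 8 of the 24 genes and below them in 2, against 21.2% and 18.0% of all tested genes. The 8 were HADHA, HADH, ACADM, DECR1, ACAA2, SCP2, CPT1A and SLC25A20, and the 2 were ETFB and CPT1C. The 10 genes without overlap were thus 41.7% of the 24, close to the 39.2% of all tested genes. The median absolute log2 difference of the 24 was 0.13 between groups, 0.21 within WT and 0.17 within KO. Over all tested genes these were 0.21, 0.27 and 0.26. The value between groups was fitted on 2 libraries per group, while those within groups compare single libraries. Without any effect the first is therefore smaller, and it cannot be set against the others directly. In bulk RNA, a lower level per cell and fewer cells with the transcript cannot be told apart.

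**Figure D3:**
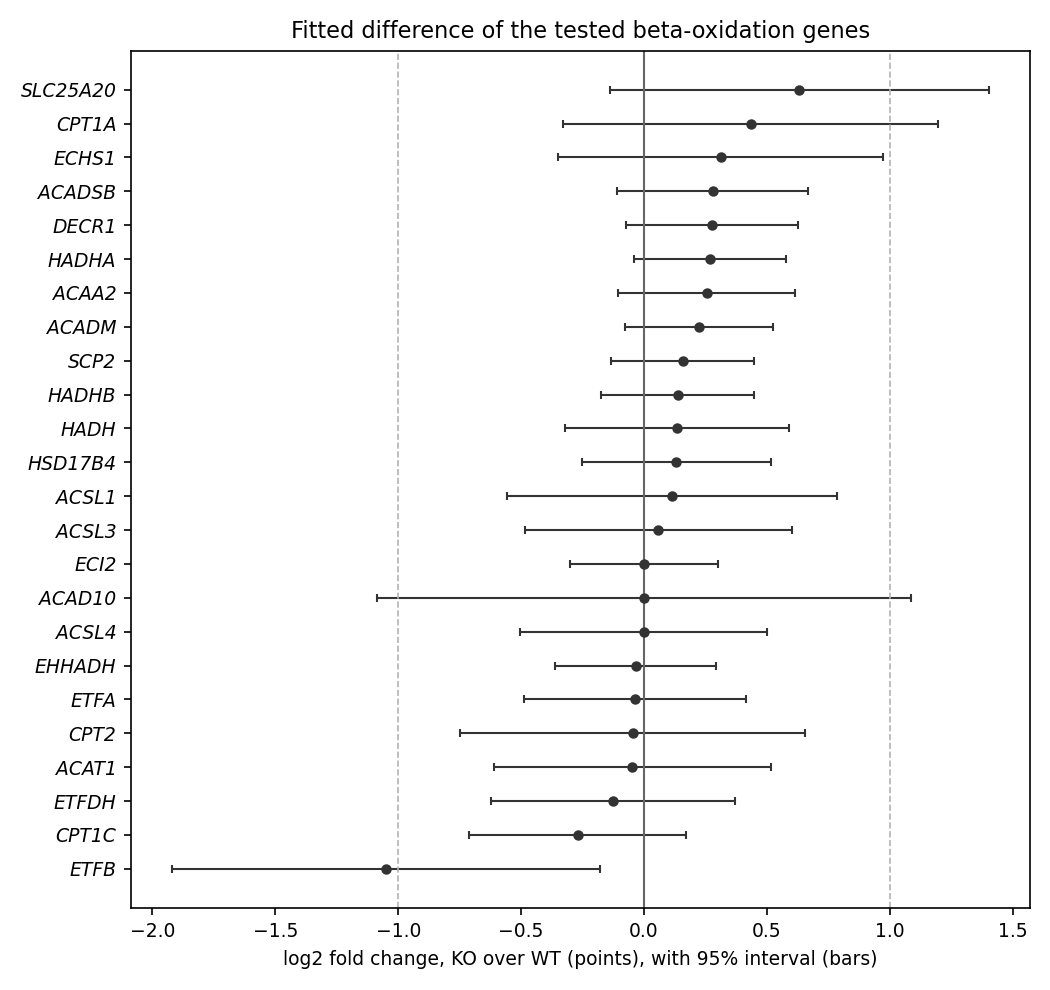
Fitted log2 fold change of KO over WT (points) with its 95% interval (bars) for the 24 tested genes, in order of size, with dashed lines at a 2-fold change. The interval of ETFB, from −1.92 to −0.18, is the one that does not include 0, and 20 intervals lie inside the dashed lines.

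Genes that activate fatty acids overlapped between the groups. The 3 long-chain acyl-CoA synthetases tested were ACSL1, the form prominent in fat-burning tissues, ACSL3, found on endoplasmic reticulum and lipid droplets, and ACSL4, which prefers arachidonate. ACSL1 had 16.6 and 10.8 CPM in WT and 14.3 and 15.1 CPM in KO libraries. ACSL3 had 20.8 and 28.6 CPM in WT and 27.8 and 23.8 CPM in KO libraries. ACSL4 had 23.3 and 27.9 CPM in WT and 25.4 and 25.8 CPM in KO libraries. In all 3 genes the KO values lay between the WT values. The log2 fold changes were 0.11 ± 0.31 for ACSL1, 0.06 ± 0.25 for ACSL3 and −0.00161 ± 0.23 for ACSL4 (SE, n = 2 per group). Their edgeR adjusted p lay between 0.962 and 1.00.

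The carnitine shuttle was represented by low counts. CPT1A, the carnitine palmitoyltransferase of the outer mitochondrial membrane and the regulated entry step, had 8.31 and 7.06 CPM in WT and 10.4 and 10.3 CPM in KO libraries, with a difference of 0.43 ± 0.35 in log2 (SE; edgeR adjusted p = 0.792). SLC25A20, the carnitine-acylcarnitine carrier of the inner membrane, had 9.55 and 6.32 CPM in WT and 13.2 and 11.3 CPM in KO libraries, the largest positive value among the 24 at 0.63 ± 0.35 (edgeR adjusted p = 0.671). Both KO libraries were above both WT libraries in this pair, at 17 to 38 counts per library. CPT2, which restores acyl-CoA inside the matrix, had 14.1 and 13.7 CPM in WT and 10.1 and 16.7 CPM in KO libraries, with the WT values between the KO values (−0.05 ± 0.32; edgeR adjusted p = 0.990). SLC25A20 was at 0.32 without WT replicate 2 and at 0.95 without WT replicate 1, and CPT1A at 0.29 and 0.55.

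CPT1C, the brain form of carnitine palmitoyltransferase that resides in the endoplasmic reticulum, had 45.7 CPM in each WT library and 34.1 and 41.5 CPM in the KO libraries (−0.27 ± 0.20; edgeR adjusted p = 0.778). Per length it stood at 22.3 ± 0.760 TPM in WT libraries against 3.34 ± 0.271 TPM for CPT1A, a larger gap than the spread of either. Its transcript is GC-rich, and tested protein-coding genes between 55% and 60% GC had a median log2 fold change of −0.13. Taken separately, their median log2 ratio was −0.29 for KO replicate 1 against WT replicate 1 and 0.00289 for the second replicates. Across the 24 tested members, Spearman's rho between GC content and log2 fold change was 0.0643, against −0.149 across 10072 tested genes. The 6 tested members at or above 50% GC had a median log2 fold change of 0.16, against −0.08 for tested protein-coding genes. ECHS1, at 60.3% GC, was at 0.31. The part of GC content in the CPT1C value was not tested. With an adjustment of each library for GC content, added after the data were seen, CPT1C was at −0.10, and with any 1 library left out it lay between −0.42 and −0.17. MLYCD, which removes the malonyl-CoA that inhibits CPT1, had 0, 0, 0 and 2 counts in the libraries in order of WT and KO replicates, too few for a comparison.

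The acyl-CoA dehydrogenases catalyse the first step of each turn and differ in chain length. ACADM had 210.1 and 184 CPM in WT and 229 and 231 CPM in KO libraries, so both KO values were higher (0.22 ± 0.14, SE; edgeR adjusted p = 0.701). ACADSB, which acts on short branched chains from isoleucine, had 108 and 125 CPM in WT and 119 and 164 CPM in KO libraries (0.28 ± 0.18; edgeR adjusted p = 0.708). One KO library overlapped the WT range, and ACADSB was at 0.03 without KO replicate 2 and at 0.46 without KO replicate 1. ACADM was at 0.10 without WT replicate 2 and at 0.32 without WT replicate 1. ACAD10, a less characterised family member, had 10 and 15 counts in WT and 21 and 8 counts in KO libraries, and its 95% interval for the log2 fold change ran from −1.09 to 1.09.

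The other dehydrogenases stayed under the filter. ACADVL, which handles very long chains, had 2 and 3 counts in WT and 5 and 11 counts in KO libraries, a KO to WT ratio of 2.72 with a 95% exact counting interval of 0.952 to 9.49. ACAD8, an isobutyryl-CoA dehydrogenase of valine breakdown, had 4 and 11 counts in WT and 8 and 10 in KO libraries, a ratio of 1.02 (0.485 to 2.17). ACAD11 had 7 and 12 counts in WT and 6 and 5 in KO libraries, a ratio of 0.492 (0.211 to 1.09). All 3 intervals include 1, although both KO libraries were above both WT libraries in CPM for ACADVL and below them for ACAD11. ACADS had a single count, in KO replicate 2.

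HADHA and HADHB encode the subunits of the mitochondrial trifunctional protein, which carries out the hydratase, dehydrogenase and thiolase steps for long chains, and the pair starts from one stretch of chromosome 2 in opposite directions. In RefSeq on GRCh38.p14 their start sites lie 307 bases apart, and their promoter windows, from 250 bases before to 50 bases after each start, share 194 bases. The windows are shown because these are the most abundant members per length and because the shared bases, in capitals, belong to both promoters; HADHA lies on the minus strand at chr2:26244583-26244882 and HADHB on the plus strand at chr2:26244689-26244988.
HADHA: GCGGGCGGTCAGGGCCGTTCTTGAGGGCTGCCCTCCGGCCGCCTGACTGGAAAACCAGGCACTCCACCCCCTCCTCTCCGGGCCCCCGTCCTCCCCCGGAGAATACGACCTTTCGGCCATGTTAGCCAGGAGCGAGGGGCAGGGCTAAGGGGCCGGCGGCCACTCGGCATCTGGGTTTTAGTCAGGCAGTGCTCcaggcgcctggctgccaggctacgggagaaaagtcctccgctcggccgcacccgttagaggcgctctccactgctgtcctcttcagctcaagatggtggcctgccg
HADHB: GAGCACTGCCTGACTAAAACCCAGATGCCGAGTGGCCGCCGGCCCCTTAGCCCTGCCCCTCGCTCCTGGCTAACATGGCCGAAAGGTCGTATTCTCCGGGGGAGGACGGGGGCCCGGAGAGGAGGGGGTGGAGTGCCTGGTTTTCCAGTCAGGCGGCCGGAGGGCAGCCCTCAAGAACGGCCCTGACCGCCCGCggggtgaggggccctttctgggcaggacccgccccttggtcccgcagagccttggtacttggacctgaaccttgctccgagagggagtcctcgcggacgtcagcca
The shared stretch has a GC content of 68.6% and 14 CpG dinucleotides.

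HADHA had 966 and 835 CPM in WT and 1074 and 1097 CPM in KO libraries. Both KO values were above both WT values, and the log2 fold change was 0.27 ± 0.14 (SE; 95% interval −0.04 to 0.58; edgeR adjusted p = 0.647). HADHB had 405 and 354 CPM in WT and 449 and 386 CPM in KO libraries, which overlap (0.14 ± 0.14; edgeR adjusted p = 0.865). HADHA reached 0.38 without WT replicate 1 (edgeR adjusted p = 0.428, the smallest of any member under the alternatives run) and 0.14 without WT replicate 2, and HADHB lay between −0.00752, without KO replicate 1, and 0.24, without KO replicate 2. The HADHA to HADHB count ratio was steady within WT, at 1.25 and 1.24 in log2, and stood at 1.26 and 1.51 in the KO libraries, a difference carried by KO replicate 2. The processed pseudogenes HADHAP1 and HADHAP2, which resemble HADHA mRNA, had 2 to 5 and 12 to 23 counts per library, small beside the 2248 to 3407 counts of HADHA.

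The remaining matrix enzymes of the spiral had log2 fold changes between −0.05 and 0.31. HADH had 30.3 and 32.7 CPM in WT and 33.4 and 35.7 CPM in KO libraries (0.13 ± 0.21, SE; edgeR adjusted p = 0.926). ACAA2, the thiolase for medium and short chains, had 113 and 88.8 CPM in WT and 119.7 and 121 CPM in KO libraries (0.25 ± 0.16; edgeR adjusted p = 0.712). In both genes the KO libraries lay above the WT libraries, for ACAA2 with WT replicate 2 standing apart as the low value. ACAA2 was at 0.06 without WT replicate 2 and at 0.44 without WT replicate 1, and HADH was between 0.08 and 0.16 with any 1 library left out. ECHS1, the short-chain enoyl-CoA hydratase, had 12.5 and 13.0 CPM in WT and 12.9 and 18.7 CPM in KO libraries, and its log2 fold change of 0.31 ± 0.30 was 0.02 without KO replicate 2, 0.52 without KO replicate 1 and 0.49 with the GC adjustment. ACAT1, the acetoacetyl-CoA thiolase that also serves ketone bodies, had 19.1 and 18.2 CPM in WT and 16.4 and 19.6 CPM in KO libraries (−0.05 ± 0.26). The KO values of ACAT1 enclosed the WT values.

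Unsaturated chains need auxiliary enzymes, of which DECR1 and ECI2 were tested and not called. DECR1 had 224 and 165 CPM in WT and 232 and 240.3 CPM in KO libraries (0.28 ± 0.16, SE; edgeR adjusted p = 0.679), with WT replicate 2 as the low library and a value of 0.04 without it and 0.51 without WT replicate 1. ECI2 had 406 and 348 CPM in WT and 387 and 367 CPM in KO libraries, with the KO values inside the WT range and a log2 fold change of −0.000514 ± 0.14. For ECI2, 29.8% of exon bases overlap antisense genes of the annotation, and as the library kit does not mark strand, their reads cannot be told apart. ECI1, the other mitochondrial isomerase, had 5 and 4 counts in WT and 3 and 2 counts in KO libraries, a ratio of 0.472 with an exact 95% counting interval of 0.124 to 1.57.

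The electron transfer flavoprotein gave the lowest fold change of the 24. ETFB, the beta subunit, had 20 and 28 counts in WT and 12 and 15 counts in KO libraries, or 8.31 and 10.4 CPM against 4.18 and 4.83 CPM, so the groups did not overlap. Its log2 fold change was −1.05 ± 0.40 (SE; 95% interval −1.92 to −0.18; unadjusted p = 0.0224 and adjusted p = 0.480 by edgeR), which does not pass over all genes. DESeq2 gave −1.07 with an unadjusted p of 0.0879. ETFA, the alpha subunit that pairs with it, had 52.7 and 46.1 CPM in WT and 41.8 and 54.4 CPM in KO libraries, where the KO values enclosed the WT values (−0.03 ± 0.21; edgeR adjusted p = 0.985). ETFDH, the membrane oxidoreductase that hands the electrons to ubiquinone, had 76.0 and 47.2 CPM in WT and 57.8 and 54.8 CPM in KO libraries, inside the WT range. The ETFDH value of −0.13 became 0.25 without WT replicate 1 and −0.47 without WT replicate 2.

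Ratios within a library do not depend on the scaling of libraries. The ETFA to ETFB count ratio in log2 was 2.67 and 2.15 in WT and 3.32 and 3.49 in KO libraries, a difference of 1.00 between means of 2.41 ± 0.37 and 3.41 ± 0.12 (SD, n = 2), without overlap. An exact two-sided permutation test of 2 against 2 libraries cannot go below p = 0.333, and the ETFB counts behind the ratio are few. The CPT1A to CPT2 ratio was −0.77 and −0.96 in WT and 0.05 and −0.70 in KO libraries, and the ACSL3 to ACSL4 ratio was −0.16 and 0.04 in WT and 0.13 and −0.11 in KO libraries. The CPT ratios did not overlap but their gap was smaller than the spread of the KO libraries, and the ACSL ratios overlapped.

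**Figure D4:**
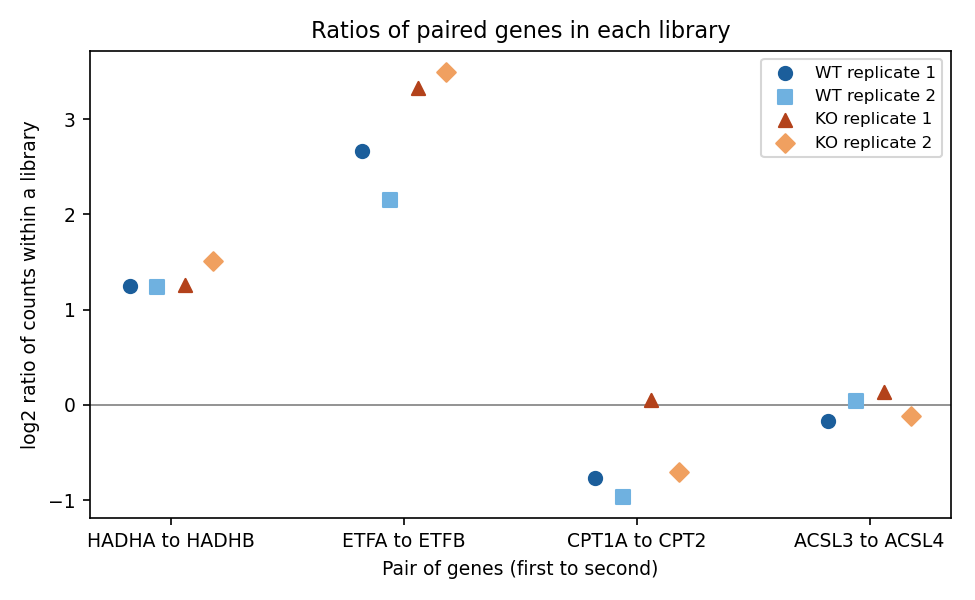
log2 ratio of counts of the first to the second gene of 4 pairs (vertical axis), with 1 point per library. For ETFA to ETFB the KO libraries, at 3.32 and 3.49, lie above the WT libraries, at 2.67 and 2.15, and the other pairs differ less.

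Of 5 peroxisomal genes, 3 were tested and 0 called. SCP2 had 363 and 332 CPM in WT and 403 and 371 CPM in KO libraries, with both KO values higher (0.16 ± 0.13, SE; edgeR adjusted p = 0.817). HSD17B4, the D-bifunctional protein of hydratase and dehydrogenase activity, had 69.4 and 62.8 CPM in WT and 67.5 and 77.0 CPM in KO libraries (0.13 ± 0.18). SCP2 was at 0.06 without WT replicate 2 or without KO replicate 1, and HSD17B4 was at 0.03 without WT replicate 2 and at 0.04 without KO replicate 2. EHHADH, the L-bifunctional counterpart, had 122 and 118 CPM in WT and 111 and 123 CPM in KO libraries, enclosing the WT values (−0.03 ± 0.15). The thiolase ACAA1 had 0 and 1 counts in WT and 1 and 2 in KO libraries, and the branched-chain oxidase ACOX3 had 1 and 4 in WT and 4 and 5 in KO libraries, a ratio of 1.53 with an exact 95% counting interval of 0.460 to 5.81. Their transcripts have GC contents of 58.1% and 53.7%. Exon bases that overlap other annotated genes were 21.2% for ACAA1, with DLEC1 on the other strand, 20.7% for SCP2, 13.8% for ETFDH and 12.0% for CPT2.

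By role, the median log2 fold change of tested members was 0.06 for 3 acyl-CoA synthetases and 0.22 for 3 acyl-CoA dehydrogenases. For CPT1A, CPT2, SLC25A20 and CPT1C, the last of them in the endoplasmic reticulum, the median was 0.19. The 6 later enzymes of the mitochondrial spiral, of which 5 were above 0, had a median of 0.20. The median was 0.14 for 2 enzymes of unsaturated chains, −0.13 for 3 ETF genes, all of them below 0, and 0.13 for 3 peroxisomal genes. The share of counts of the later spiral enzymes was 0.150% and 0.135% in WT and 0.172% and 0.163% in KO libraries, and that of the ETF genes was 0.0133% and 0.0104% in WT and 0.0104% and 0.0111% in KO libraries. In the first the groups did not overlap, and in the second they did. Most counts of the first share were of HADHA, at 966 and 835 CPM in WT and 1074 and 1097 CPM in KO libraries. HADHB, the next largest, overlapped between the groups, so the first result mainly restates HADHA.

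By their median, the promoters of the members were rich in CpG dinucleotides. Windows of 300 bases were found for 27 of the 32 genes in RefSeq (GRCh38.p14). Their median GC content was 67.3% and their median number of CpG dinucleotides 27, against 58.7% and 14 in 35116 windows of all genes. The windows of all genes include non-coding genes, while all members are protein-coding, and no comparison with coding genes alone was made. The letters TCAAGGTCA, which the estrogen-related receptors prefer, occurred on either strand in 0 of the 27 windows and in 0.353% of all windows. The direct repeat of AGGTCA with 1 base between the copies, bound by PPAR with RXR, occurred in 0 of 27 and in 0.0228% of all windows. The letters AGGTCA alone, which lie within both, occurred in 1 of 27, ACAD10, against 13.8%. The letters CCAAT occurred in 5 of 27, ETFA and ETFB among them, against 34.6% of all windows. A match or its lack describes these letters in this window only.

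Other genes of fatty acid metabolism, from lists beside the 32, gave 0 called genes in either direction over all genes tested. Among 22 tested genes of other mitochondrial acyl-CoA steps the median log2 fold change was 0.09, and the smallest p belonged to ACOT7 and ACOT13, which cleave acyl-CoA. ACOT7 had 7.89 and 5.57 CPM in WT and 2.44 and 2.58 CPM in KO libraries (−1.40 ± 0.48, SE; edgeR adjusted p = 0.432). ACOT13 had 181 and 166 CPM in WT and 136 and 137 CPM in KO libraries (−0.35 ± 0.14; edgeR adjusted p = 0.512). Both thioesterases, named for their small p, were lower in both KO libraries without passing the test. In their list 8 of 22 tested genes did not overlap between the groups, against 39.2% of all tested genes. ACOT7 has a GC content of 62.2%, and tested protein-coding genes above 60% GC had a median log2 fold change of −0.28. The part of GC content in ACOT7 was not tested. ETFBKMT, the methyltransferase of ETFB, named here after its value was seen, had 38.2 and 39.8 CPM in WT and 27.8 and 26.7 CPM in KO libraries (−0.51 ± 0.21; edgeR adjusted p = 0.513).

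Among 14 further peroxisomal genes the median log2 fold change was 0.03, with HACL1, an enzyme of alpha-oxidation, at 0.35 ± 0.18 (SE) and CAT, catalase, at 0.29 ± 0.19. Among 9 genes of uptake, binding and storage the median was 0.17. LPL, a lipase that releases fatty acids from lipoproteins, had 5.40 and 8.17 CPM in WT and 14.3 and 11.6 CPM in KO libraries (0.91 ± 0.36; edgeR adjusted p = 0.505). PLIN3, a coat protein of lipid droplets, had 15.4 and 7.80 CPM in WT and 6.26 and 4.51 CPM in KO libraries (−1.09 ± 0.43; edgeR adjusted p = 0.509). The groups did not overlap in LPL, at 13 to 41 counts per library, or in PLIN3, at 14 to 37. Both were named for the smallest p of their list, which favours such a separation. In that list 5 of 9 tested genes did not overlap, against 39.2% of all tested genes. PLIN3 has a GC content of 58.4%, and tested protein-coding genes between 55% and 60% GC had a median log2 fold change of −0.13. The part of GC content in PLIN3 was not tested.

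Of 17 tested regulators of the pathway 6 were above 0, around a median of −0.05 in log2, and 0 were called. Here the smallest p belonged to PDK4, a pyruvate dehydrogenase kinase induced by fasting (−0.91 ± 0.43, SE; edgeR adjusted p = 0.594), and RXRA, the partner receptor of the PPARs (−0.57 ± 0.32; edgeR adjusted p = 0.670). RXRA has a GC content of 63.2%, and tested protein-coding genes above 60% GC had a median log2 fold change of −0.28. The part of GC content in RXRA was not tested. Of 19 tested genes of fatty acid synthesis 13 were above 0 with a median of 0.11. The desaturase FADS1 was at 0.30 ± 0.13 (edgeR adjusted p = 0.584) and the elongase ELOVL6 at 0.28 ± 0.14. Of 5 tested ketone body genes the median was 0.07. OXCT1, which activates ketone bodies for use as fuel, had 62.3 and 64.3 CPM in WT and 85.3 and 101 CPM in KO libraries (0.56 ± 0.17; edgeR adjusted p = 0.344). BDH2 had 0.20 ± 0.16. OXCT1, named for its small p, was higher in both KO libraries and did not pass the test. Of the ketone body genes, 3 of 5 tested did not overlap between the groups, against 39.2% of all tested genes.

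The authors' deposited table of their own DESeq2 comparison gave an adjusted p for 26 of the 32 genes, of which 0 were under 0.05, against 34 of 12392 genes in that table. In the authors' deposited table ETFB was at −1.06 with a standard error of 0.70, HADHA at 0.27 with 0.17 and SLC25A20 at 0.63 with 0.60. The sign in that table and in the edgeR fit was the same for 23 of the 24 tested genes.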

How the data were processed

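Polyadenylated RNA of 2 WT and 2 KO libraries was measured. The authors deposited 1 sheet of raw gene counts per library, from HTSeq per the file headers. Tools named in the submitters' processing notes are STAR, Trimmomatic, FastQC, DESeq2 and HTSeq, on hg38. For the annotation, strand setting and tool versions, nothing is given in the sources used here. Libraries came from an amplified low input kit, per the labels' protocols. Libraries were taken from sheet names, each matching 1 title. The authors' deposited comparison table holds, per the file headers, a base mean signal, a log2 fold change with its error, a Wald score, p-values and adjusted p-values, used only where named.

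The main test was edgeR 4.0.16 (R 4.3.3), a robust quasi-likelihood model with genotype alone, after filterByExpr at a minimum count of 10 and TMM scaling; genes were called at an adjusted p under 0.05. DESeq2 1.42.0 and limma 3.58.1 were alternatives, as were other scalings and filters, a replicate block, leaving out each library and, added after the data were seen, offsets for GC content. The fit was tested on simulated data. TPM and GC content used GENCODE 29 (GRCh38), which may differ from the authors' annotation. Within each group, neither library repeated the other within sampling noise (chi-square per degree of freedom 3.15 in WT and 3.48 in KO). Pairs across the groups were not checked in this way. Named genes are all members, and in each other list the called genes or the 2 of smallest p; ETFBKMT was added after its value was seen, and marker genes come from their own lists. Members and lists were chosen with earlier results of these data known.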

Additional observations from a re-analysis of the deposited data

How the results depend on the processing

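Under all 13 alternatives run, 0 of the tested members were called in either direction, and the smallest edgeR adjusted p of any member was 0.428. The median log2 fold change of the members stayed above 0, between 0.05 and 0.19 when 1 library was left out. Calls over all genes, 5 higher and 30 lower, became 31 and 125 without a filter, 3 and 13 with a minimum count of 30, 29 and 111 with the replicate block, and 10 higher with GC offsets; leaving out 1 library gave 1 to 25 higher and 3 to 164 lower (4 higher and 3 lower with WT replicate 1 left out, 1 and 13 with WT replicate 2 left out, 18 and 80 with KO replicate 1 left out, and 25 and 164 with KO replicate 2 left out). The members at an unadjusted p under 0.05, 1 in the main comparison, became 0 with a minimum count of 30, where ETFB was not tested, 0 with DESeq2, and 0 to 4 without 1 library. The cause was not tested. The replicate numbers do not pair the samples by the labels (correlation of deviations −0.0351), and the block changed no member's call. Of 309 member values under alternatives 283 kept their direction and 26 did not, in 11 genes. Without a filter ACSL4 was 0.00254, ACAD10 0.00473 and ECI2 0.00152; with the replicate block ACSL4 was 0.00249 and ECI2 0.00293; with DESeq2 ACAD10 was 0.000467; with limma-voom ACSL4 was 0.000710 and ECI2 0.00343; with GC offsets CPT2 was 0.0139, ACAD10 0.11 and ECI2 0.0152. When 1 library was left out, ACSL1 ran from −0.21 to 0.45, ACSL3 from −0.15 to 0.28, ACSL4 from −0.12 to 0.10, CPT2 from −0.46 to 0.23, ACAD10 from −0.94 to 0.58, HADHB from −0.00752 to 0.24, ACAT1 from −0.18 to 0.0435, ECI2 from −0.14 to 0.12, ETFA from −0.24 to 0.11, ETFDH from −0.47 to 0.25 and EHHADH from −0.10 to 0.00361. The median WT level of the 32 genes was 13.3 TPM by coding length, and without HADHA the other 31 genes took 0.221% of counts in WT and 0.240% in KO. The 4 members whose interval reached a 2-fold change had at most 38 counts in any library.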
